A study of Sorghum bicolor with 12 samples.

Results

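The well-expressed long noncoding RNA (lncRNA) genes of sorghum leaves were the 352 genes that the deposited gene table labels lncRNA and that had a mean raw count of 100 or more over the 12 libraries. They made up 352 of the 2881 lncRNA genes and of the 33897 genes of the table. Strand-specific libraries were made from leaf RNA of Sanchisan (SCS) and Jinliang 5 (JL), which are cultivars of sorghum (Sorghum bicolor), with 3 in each of 4 groups: SCS under a normal water supply (SCS control), SCS under drought, JL control and JL drought. The labels give no transgene or other treatment, no plant age, no length or depth of the drought, and do not say whether replicate libraries stem from different plants, so the p-values cover only how these libraries spread, which may be technical. The members were chosen by this mean count, which used no contrast between groups, but 59 of the 352 fell under a mean of 100 when 1 of the groups was left out, 11 of them for either of 2 groups. The 3 members closest to the limit had mean counts of 100.25, 100.5 and 100.5 (LOC110431794, LOC110431389 and LOC110434479), and the 3 lncRNA genes just under it had 98.7, 99.1 and 99.7 (LOC110430623, LOC110437134 and LOC110430163).

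A lncRNA is a transcript that is long enough to be set apart from small RNAs and for which no protein has been annotated. Many plant lncRNAs are transcribed, capped and polyadenylated like messenger RNAs, and some overlap a coding gene on the other strand or start next to its promoter. A few act on chromatin, on the transcription of a neighbouring gene or as decoys of microRNAs, but most annotated lncRNAs have no known role, and in plants they are often made at a low level, in few tissues or under stress.

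The members were long, spliced gene models. Their median exonic length was 2194 bases (range 446 to 11139), against 1914 in the 12596 protein-coding genes of the same mean count and 808 in the 2529 lncRNA genes under the limit. None of the 352 models was a single exon, as judged by a gene span equal to the exonic length, against 8.72% of those coding genes. Per kilobase of exon, their median level was 8.33 CPM (counts scaled to a common library size), against 13.7 in the coding genes. Together they held 1.01% of all counts and 87.1% of the counts of lncRNA genes. By library the share of all counts ran from 0.837% in JL drought 2 to 1.545% in SCS drought 2. Over all 12 libraries, the 10 highest members by mean count took 21.9% of the member counts. The 10 highest of each library took from 18.1% in SCS control 1 to 31.5% in SCS drought 1. All 352 had the same start and end in RefSeq's assembly Sorghum_bicolor_NCBIv3, where none has a protein, and 238 have more than 1 transcript.

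The deposited descriptions name every member "uncharacterized", but 68 of the 352 carry a match to a known protein, 61 to a Swiss-Prot entry and 7 to a Pfam domain alone. Of these, 9 match a protein of a mobile element. The more abundant ones include LOC110430880 (a retrovirus-like polyprotein), LOC110436355 (a LINE-1 reverse transcriptase), LOC8054483 (SMU2, a splicing factor in Arabidopsis), LOC110430154 (the large subunit of the clamp loader of DNA replication), LOC8065094 (a translation machinery-associated protein), LOC110436826 (a TNT 1 polyprotein) and LOC8079720 (the dimerisation region of hAT transposases). The eighth, LOC8070379 (a Rubisco small subunit), was called lower in SCS drought, as described with the members that fell, and the 7 others were called for drought in neither cultivar. Whether such a gene shares reads with a coding copy of like sequence was not tested, so these values are uncertain.

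By position, 186 members lay within 5000 bases of a coding gene, 21 were divergent (head to head with a coding start within 1000 bases), 17 overlapped a coding gene on the opposite strand and 3 on the same strand. A further 124 lay farther away, and 1 had no coding gene on its sequence. The strand setting of the counting was not given in the sources used here, so reads of an overlapping pair may not be separable.

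Library totals ranged from 15039990 to 18356604 counts. The tissue label was leaf, and summed CPM of 38 mesophyll genes (C4 and light-harvesting proteins) ranged from 39349 to 103064 in SCS control, from 7306 to 27621 in SCS drought, from 124383 to 234847 in JL control and from 157722 to 239784 in JL drought. The 9 bundle sheath genes lay at 5460 to 13303, 3240 to 5337, 15398 to 25795 and 16713 to 27009 CPM in the same order. Of 43 seed storage genes 16 had a count, with sums of 26.0 to 63.997, 268.7 to 1023, 56.1 to 127.3 and 25.5 to 252.2 CPM. The 20 dividing tissue genes summed to 128.9 to 202.8, 150.8 to 309.5, 122.6 to 145.0 and 106.0 to 130.8 CPM, and the 21 pollen or anther genes, 9 of them with a count, to 165.0 to 213.9, 90.03 to 212.5, 198.6 to 278.2 and 145.2 to 259.9 CPM. In leaf RNA, fewer cells of a type and less RNA per cell cannot be told apart.

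The libraries of 1 group differed in which members were present at all. In 64 of the 352 members (18.2%) one library had 0 counts while another library of the same group had 100 or more. The same held for 234 of the 12596 coding genes with a mean count of 100 or more (1.86%), a list not matched to the members in level. The median of that list was 13.7 CPM per kilobase of exon, against 8.33 in the members. Such a split also held for 113 of the 2529 lncRNA genes under the limit (4.47%), whose mean counts are lower. These splits lay in SCS drought for 46 members, in JL drought for 30, in JL control for 9 and in SCS control for 0, and 18 members were split in more than 1 group. The deposited FPKM, values scaled by gene length and depth, were also 0 there, in all 64 members. They come from the same libraries, so this is no independent check of the zeros. The limit of 100 counts in this comparison was chosen after the values had been seen.

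Among the 352 members, none separated the 3 SCS control libraries from each other or from SCS drought 3 by 0 against 100 counts or more. SCS drought 1 and SCS drought 2 each differed in this way from those 3 libraries at 38 to 40 members, and each from SCS drought 3 at 35. They differed from one another at 16. In 14 members, SCS drought 1 and 2 were both at 0 and the other 4 SCS libraries were all at 100 or more. In 9 members SCS drought 1 alone was at 0 among the SCS libraries, in 4 SCS drought 2 alone, and in none SCS drought 3 alone. The reverse, 100 counts or more in SCS drought 1 and 2 and 0 in the other 4, held for 10 members. Of the 12596 coding genes, SCS control and SCS drought 3 differed at 36 to 51 (0.286% to 0.405%). A share this small comes to few of 352 members, so their 0 does not set them apart. SCS drought 1 and 2 differed from SCS control at 103 to 170 coding genes (0.818% to 1.35%), against 10.8% to 11.4% of the members. Within SCS drought, coding genes differed at 41 between SCS drought 1 and 2 (0.33%, against 4.55% of the members). They differed at 49 between SCS drought 1 and 3 (0.39%), and at 106 between SCS drought 2 and 3 (0.84%), against 9.94% of the members in both.

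**Figure D1:**
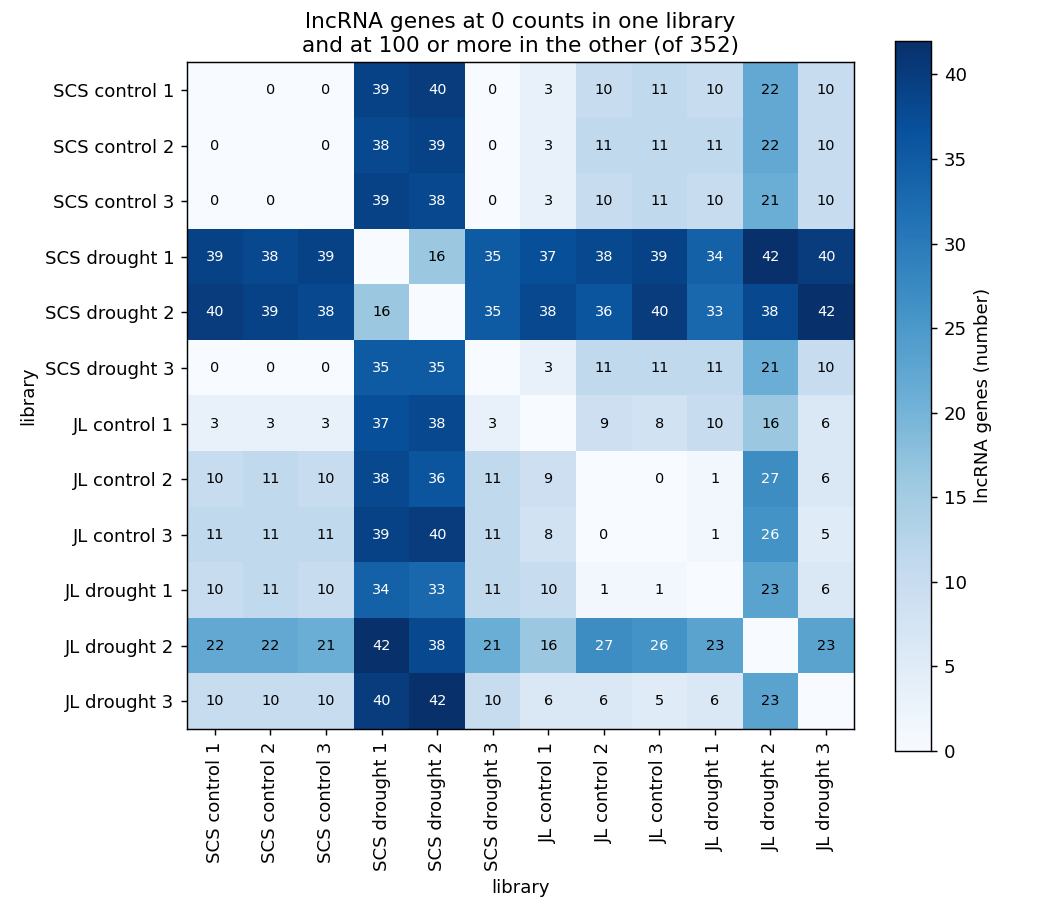
Number of the 352 lncRNA genes at 0 counts in one library and at 100 or more in the other, for each pair of the 12 libraries (rows and columns; colour and printed number). SCS control 1 to 3 and SCS drought 3 form a block of 0, while SCS drought 1 and 2 differ from those 4 libraries at 35 to 40 genes.

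In JL, control 2, control 3 and drought 1 differed from each other at 0 or 1 members. JL control 1 differed from those 3 at 8 to 10 and from each SCS control library at 3. JL drought 2 stood apart from the other JL libraries at 16 to 27 members, of which 9 were at 0 in JL drought 2 and at 100 or more in all 5 others. SCS drought 1 and 2 held 15578190 and 15699999 counts in all and SCS drought 3 held 16072003. The cause of these zeros was not tested, and the labels record no feature of a library that runs with them.

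Counts of single genes show how complete the zeros were. LOC110431316 (chromosome 1, 63006232 to 63010865, plus strand) had 1899, 3507 and 2583 counts in SCS control 1 to 3, 0, 0 and 1643 in SCS drought 1 to 3, 2152, 1939 and 2360 in JL control and 2634, 0 and 2522 in JL drought. It was thus at 0 in 3 drought libraries and at 1643 or more in all 9 others. LOC110433868 (chromosome 3, 71358512 to 71362365, plus strand) had 1617, 1590 and 1903 counts in SCS control, 0, 0 and 2132 in SCS drought, and 862 to 1637 in the JL libraries. Its neighbour LOC110433869, which ends 494 bases upstream on the same strand (71356416 to 71358017), had 408, 478 and 485 counts in SCS control, 0, 0 and 471 in SCS drought, and 262 to 474 in JL. Both were absent from the same 2 libraries. The other split members that lie within 5000 bases of each other were also at 0 together: LOC110436591 and LOC110436089 on chromosome 6, 527 bases apart, in SCS drought 1, and LOC110429631 and LOC110429630 on chromosome 8, 9 bases apart, in SCS drought 2.

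The opposite pattern was a gene silent in most libraries. LOC110430716 (chromosome 10, 48566596 to 48569516, minus strand in the table) had 0 counts in SCS control, 818, 2454 and 0 in SCS drought, 0, 2389 and 2035 in JL control and 1894, 0 and 0 in JL drought. Its presence crossed both cultivars and both water supplies. In 10 of the 352 members (2.84%) at least 9 libraries had 5 counts or fewer, against 34 of 12596 coding genes (0.27%). Such genes are members only through the few libraries where they are high, so these libraries are a description: of the 10, 9 exceeded 5 counts in SCS drought 1, 9 in SCS drought 2, 4 in JL drought 2, 1 in JL drought 3 and none in the other 8 libraries. Of the 34 coding genes, 29 exceeded it in SCS drought 1, 30 in SCS drought 2 and 21 in SCS drought 3. LOC110433887 (chromosome 1) had 278 and 791 counts in SCS drought 1 and 2, 1747 in JL drought 2 and 0 elsewhere. LOC110429800 (chromosome 8) had 1073, 2180 and 104 counts in the same 3 libraries and 0 elsewhere. The filter on low counts removed 5 of the 10 (LOC110429686, LOC110435836, LOC110429873, LOC110429724 and LOC110436550), whose counts lay almost wholly in SCS drought 1, SCS drought 2 or both. The other 347 members were tested.

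**Figure D2:**
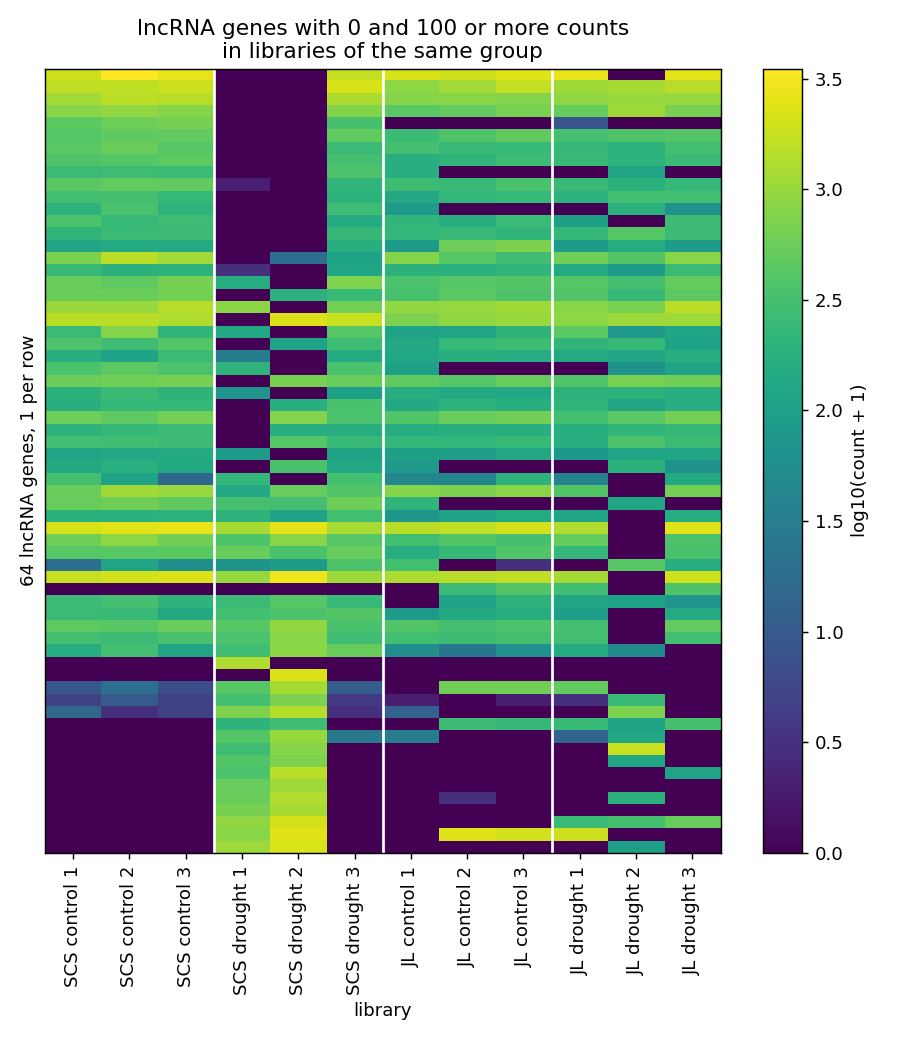
Raw counts, as log10(count + 1), of the 64 lncRNA genes (rows) with 0 and 100 or more counts in libraries of the same group; columns are the 12 libraries and white lines separate the 4 groups. The dark blocks at the top are genes at 0 in SCS drought 1 and 2, and those at the bottom left are genes at or near 0 in the other 4 SCS libraries.

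In the zeros of the members, SCS drought 1 and 2 stand apart from the other SCS libraries. For most named members the SCS drought change is therefore also given with both left out. SCS drought 3 is then alone in its group. Of the 64 split members, 60 were tested and 1 (LOC110434456) was called in any of the 5 comparisons (1.56%), against 65 of the 288 others (22.6%), a difference that was not tested. Both shares count untested members too. By definition a split member spreads widely within a group, which works against a call. Nothing is concluded from this contrast. A gene was called where edgeR's quasi-likelihood F test gave an adjusted p (Benjamini-Hochberg, 20873 genes) below 0.05, and CPM are scaled by the TMM method.

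The most abundant members by mean CPM were LOC110430336, LOC8086133, LOC110431767, LOC110436313, LOC110436330, LOC110433835, LOC110434524 and LOC110430880. Per kilobase of exon, LOC110431767 was the highest of all members at 118.7 CPM and LOC110430336 had 83.4, while LOC110430880, whose exons span 10687 bases, had 13.3. LOC110430336 (chromosome 9, 53648005 to 53654666, minus strand) alone gave 17.5%, 14.5% and 10.2% of the member counts in SCS drought 1 to 3, and at most 6.002% in JL control 3, its highest share outside that group. LOC8086133 (chromosome 8) held 208.2, 244.1 and 408.4 CPM in SCS control, 2.52, 49.9 and 85.1 in SCS drought, 259.8 to 602.2 in JL control and 316.1 to 573.7 in JL drought. Its SCS drought libraries lay below all 9 others, with a log2 change of -2.65 (SE 0.90) in SCS that was not called (adjusted p = 0.0922 by edgeR). LOC110433835 ranged from 88.4 to 208.9 CPM and LOC110434524 from 93.5 to 199.2 CPM over the 12 libraries.

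The first comparison asked how the members differed between SCS drought and SCS control. Of the 347 tested members 27 were called (7.78%), 11 higher and 16 lower in drought, where 9.51% of all tested genes were called, 4.09% higher and 5.41% lower. Drought and control libraries did not overlap in 102 members (29.4%) and in 33.8% of all genes, and 81 members had an unadjusted p below 0.05 (23.3%, against 26.2% of all genes). DESeq2 called 62 members and 18.1% of all genes. The median log2 change was -0.20 in the members and -0.07 in all genes. The called members rose by 1.19 to 5.40 and fell by 1.42 to 6.96 on the log2 scale. Of the coding genes with a mean count of 100 or more 12.9% were called, and of 591 tested lower lncRNA genes 2.88%. The count of called members moved with single libraries: 14, 16 and 6 members were called without SCS control 1, 2 and 3, 9 without SCS drought 1, 20 without SCS drought 2 and 57 without SCS drought 3. Without SCS control 1, 1 rose and 13 fell. Shares of all genes are not given for the fits that left out single libraries, nor for the unadjusted p in the next fit. These counts therefore do not set the members apart from other genes. With SCS drought 1 and 2 both left out none was called by edgeR, of members or of all genes, and 59 members had an unadjusted p below 0.05; this fit, added after the zeros were seen, assumes that SCS drought 3 varies like the other groups. Of the 11 members that rose, 4 (LOC110436758, LOC8061147, LOC110437103 and LOC110436109) passed the mean count of 100 only with SCS drought, the group where they were high, and of the 16 that fell, 2 fell under it without SCS control (LOC110436766) or without either control group (LOC110430304), so these changes are not independent of how the members were chosen.

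LOC110430336, the most abundant member, rose with drought in SCS. It measured 155.8, 272.8 and 206.9 CPM in SCS control and 1404, 1786 and 674.0 in SCS drought. The groups did not overlap, and the lowest drought library was SCS drought 3. The log2 fold change was 2.60 (SE 0.55, adjusted p = 0.0185 by edgeR), and leaving out control 1, control 3 or drought 1 of SCS ended the call (adjusted p = 0.0789, 0.0817 and 0.0607). With SCS drought 3 alone in its group the change was 1.68 (adjusted p = 0.335 by edgeR). In JL it measured 370.7 ± 250 CPM in control and 320.3 ± 130 in drought (SD, n = 3), with overlapping libraries. The nearest coding gene, basic leucine zipper 23 (LOC8077047), 4392 bases away, had a log2 change of 1.68 (SE 0.52) in SCS that was not called (adjusted p = 0.0690 by edgeR).

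LOC110434931 (chromosome 4, 64071433 to 64075749, minus strand) had the smallest adjusted p of the members that rose. Its levels were 6.51, 8.17 and 8.41 CPM in SCS control and 100.2, 151.0 and 50.8 in SCS drought, against 3.50 to 9.72 in JL control and 7.11 to 10.7 in JL drought. All 3 SCS drought libraries exceeded all 9 others. The log2 fold change in SCS was 3.71 (SE 0.47, adjusted p = 0.0037 by edgeR), and the call held without each of the 6 libraries in turn (adjusted p up to 0.0194). With SCS drought 3 alone in its group the change was 2.73 (adjusted p = 0.103 by edgeR).

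LOC110436758 (chromosome 1, 21842304 to 21845671, plus strand) was at 1.20, 1.88 and 0.568 CPM in SCS control and at 22.9, 18.8 and 15.6 in SCS drought. Its drought libraries lay close together, and it is a member only through them. The log2 change was 3.96 (SE 0.75, adjusted p = 0.0124 by edgeR), lost without SCS control 1 or SCS control 3 (adjusted p up to 0.0590), and 3.67 with SCS drought 3 alone (0.187). JL libraries ranged from 0.293 to 2.66 CPM.

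LOC110430330 (chromosome 9, 7385038 to 7389069, plus strand) had the largest rise among the called members, and it rested on 2 libraries. It measured 0.267, 0.208 and 0.512 CPM in SCS control and 16.7, 24.7 and 0.618 in SCS drought, so that SCS drought 3 lay beside the controls. In JL it was at 13.1 to 16.6 CPM in control and 16.6 to 19.5 in drought, close to SCS drought 1 and 2. The log2 change in SCS was 5.40 (SE 1.04, adjusted p = 0.0128 by edgeR), lost without any 1 of the 3 SCS control libraries (adjusted p up to 0.0569), and 0.92 with SCS drought 3 alone (0.530).

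LOC110431849 (chromosome 1, 8691923 to 8692959, plus strand) matches phytochrome A, a red and far-red light receptor. Its levels were 10.7, 9.88 and 12.2 CPM in SCS control and 65.0, 142.4 and 15.4 in SCS drought, with SCS drought 3 again the lowest of its group. The log2 change was 2.76 (SE 0.76, adjusted p = 0.047 by edgeR), lost in 5 of 6 fits that left out 1 library (adjusted p up to 0.149), and 0.50 with SCS drought 3 alone (0.910). The phytochrome a gene itself (LOC8059991), 20794 bases away on the same strand, was at 328.3 ± 84.2 CPM in SCS control and 2631 ± 2517 in SCS drought, a log2 change of 3.00 (SE 0.83, adjusted p = 0.0469 by edgeR). Its closest coding gene, LOC110431848, 16 bases away, had a change of 2.27 (SE 0.83) that was not called (adjusted p = 0.114). Reads common to these genes may not be separable.

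LOC8061147, LOC110437103 and LOC110435016 rose by 2.40, 2.41 and 2.43 on the log2 scale, the first 2 of them members only through SCS drought. LOC8061147 (chromosome 1) went from 4.63, 5.21 and 4.83 CPM to 37.7, 18.1 and 21.9. LOC110437103 (chromosome 7), which matches an enzyme of UDP-apiose synthesis, went from 6.02, 7.46 and 3.87 to 27.3, 50.6 and 14.6. LOC110435016 (chromosome 4), with a reverse transcriptase domain, went from 4.46, 3.04 and 6.82 to 17.1, 46.6 and 13.6. In each of these 3 genes the SCS groups did not overlap. Each call was lost without 2 or more single libraries, at adjusted p up to 0.107, 0.0767 and 0.0620. With SCS drought 3 alone the changes were 2.17, 1.34 and 1.52 (adjusted p = 0.282, 0.347 and 0.222 by edgeR). The coding gene nearest to LOC110435016 is HOX24 (LOC8075156), a homeobox-leucine zipper factor known in rice for its induction by water deficit, 7201 bases away, which rose from 1.08 ± 0.299 to 486.4 ± 174 CPM in SCS. The remaining called members that rose were LOC110431767 (1.19), LOC110435157 (1.90) and LOC110436109 (2.01 on the log2 scale).

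**Figure D3:**
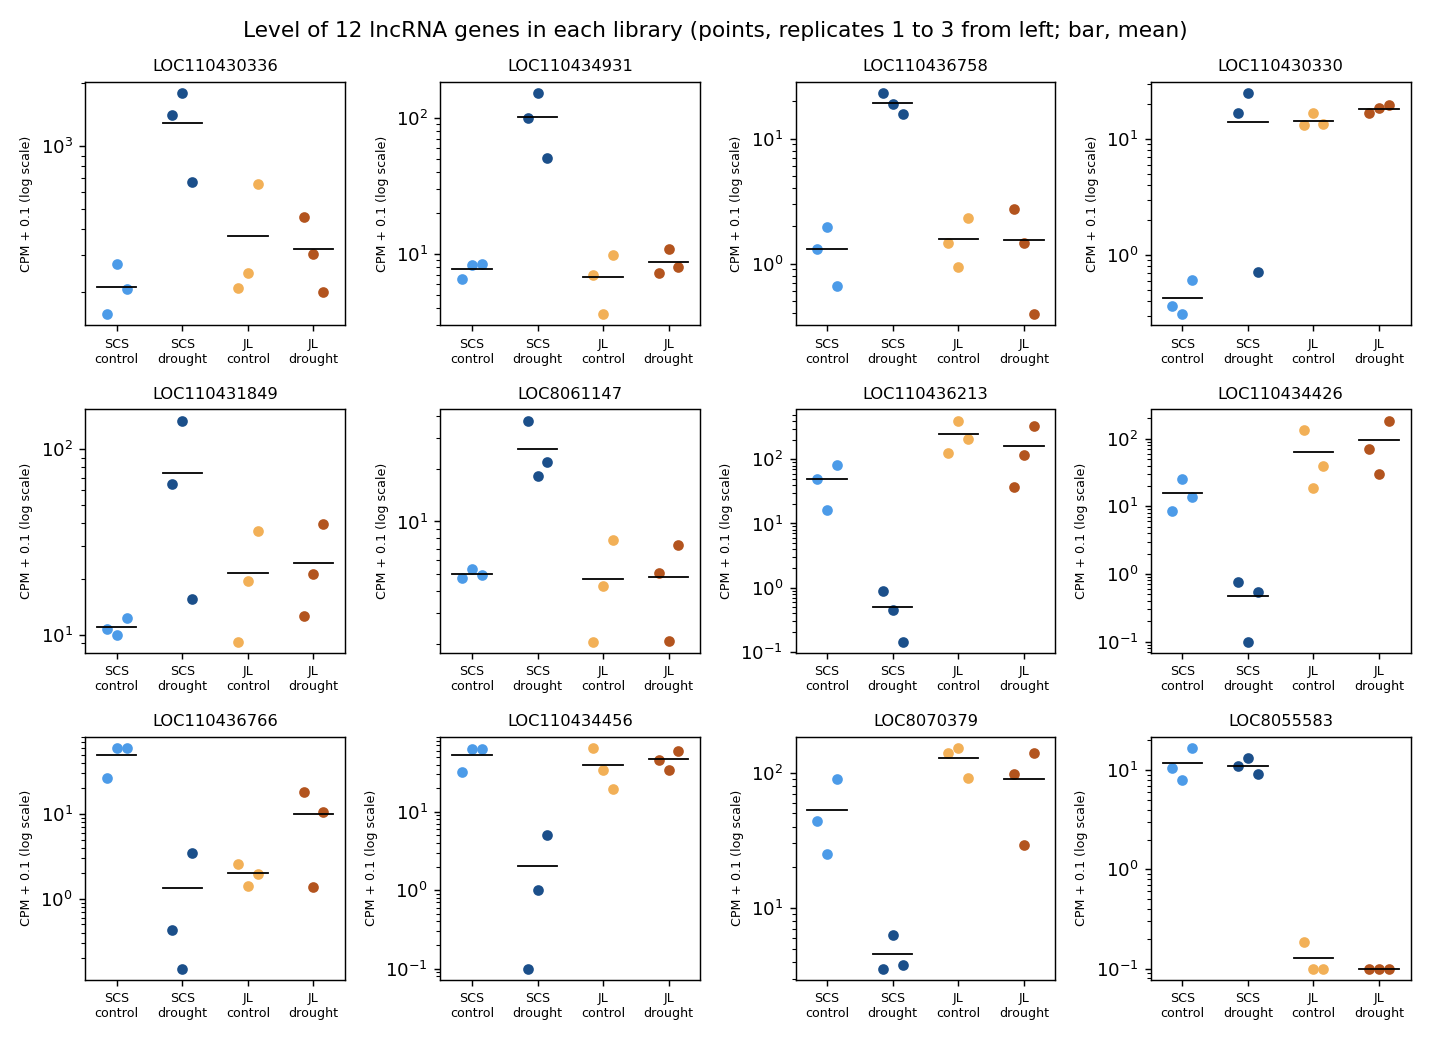
CPM + 0.1 on a log axis of 12 lncRNA genes in the 4 groups; points are libraries, replicates 1 to 3 from left to right, and bars are group means. LOC110434931 exceeds 50 CPM in SCS drought alone, LOC110436213 and LOC8070379 are lowest in SCS drought, and LOC8055583 is at or near 0 in JL.

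The deepest fall was that of LOC110436213 (chromosome 6, 6219041 to 6221202, minus strand). It measured 49.5, 15.9 and 81.2 CPM in SCS control and 0.784, 0.355 and 0.0441 in SCS drought, and 127.4 to 402.4 in JL control and 36.4 to 330.7 in JL drought. All 3 SCS drought libraries lay below 1 CPM and all others above 15. The log2 change was -6.96 (SE 1.18, adjusted p = 0.00819 by edgeR) and held without each of the 6 libraries in turn (adjusted p up to 0.0321). With SCS drought 3 alone in its group it was -9.88 (adjusted p = 0.145 by edgeR). Its nearest coding gene, mitochondrial glycerol-3-phosphate dehydrogenase SDP6 (LOC8067785), 4847 bases away, was at 39.4 ± 5.73 and 43.0 ± 5.17 CPM in SCS control and drought and was not called there.

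LOC8070379 (chromosome 8, 1557921 to 1558762, minus strand) matches the small subunit of Rubisco, the enzyme that fixes carbon dioxide in the bundle sheath of C4 leaves. Its levels were 44.2, 25.2 and 89.4 CPM in SCS control and 3.47, 6.28 and 3.71 in SCS drought, against 91.7 to 152.6 in JL control and 29.3 to 140.1 in JL drought. SCS drought lay below all other libraries, by a log2 change of -3.56 against SCS control (SE 0.63, adjusted p = 0.00978 by edgeR; 0.05002 without SCS drought 1), and of -3.83 with SCS drought 3 alone (0.209). The summed bundle sheath genes, Rubisco small subunits among them, were also lowest in SCS drought, at 3240 to 5337 CPM against 5460 to 13303 in SCS control. Their part in this result was not tested. The neighbouring coding gene LOC8071440, named as an RPP13-like disease resistance protein, fell by 4.86 on the log2 scale (SE 1.07, adjusted p = 0.0217 by edgeR).

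LOC110434426 (chromosome 4) went from 8.42, 25.1 and 13.5 CPM in SCS control to 0.672, 0 and 0.441 in SCS drought, and LOC110433296 (chromosome 3) from 21.1, 35.9 and 23.6 to 1.46, 0.101 and 2.21. LOC110437411 (chromosome 7) went from 6.91, 7.92 and 9.78 to 0.560, 1.11 and 0.177, and LOC110430109 (chromosome 9) from 12.4, 9.59 and 26.2 to 0.896, 1.11 and 1.72. All 3 SCS drought libraries, SCS drought 3 included, were below the controls in these 4 genes. Their log2 changes were -5.38, -4.41, -3.72 and -3.68 (adjusted p = 0.0206, 0.0171, 0.0162 and 0.0154 by edgeR). Each call was lost without SCS control 3 and also without SCS drought 1 (adjusted p up to 0.0623, 0.0703, 0.0721 and 0.0722 over the fits that left out 1 library). With SCS drought 3 alone the changes were -5.12, -3.60, -5.47 and -3.21 (adjusted p = 0.262, 0.209, 0.143 and 0.333 by edgeR).

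LOC110436766 (chromosome 7) fell from 26.1, 60.0 and 60.1 CPM to 0.336, 0.0507 and 3.35, a log2 change of -5.26 (SE 1.29, adjusted p = 0.0311 by edgeR). In JL it was low in control, at 1.33 to 2.46 CPM, and at 17.8, 1.28 and 10.5 in drought. Its call was lost in 5 of 6 fits that left out 1 library (adjusted p up to 0.110), and with SCS drought 3 alone the change was -3.85 (0.292). The coding gene 3420 bases to its right, LOC8064337, had a similar set of levels, 23.8 ± 13.4 and 0.534 ± 0.532 CPM in SCS and 1.04 ± 0.273 and 4.59 ± 5.01 in JL (control, drought), and fell in SCS by 5.44 (SE 1.27, adjusted p = 0.026 by edgeR). LOC110434456 (chromosome 4), the 1 called member that was split, went from 31.6, 63.1 and 63.5 CPM to 0, 0.912 and 4.94 (log2 change -4.74, SE 1.17, adjusted p = 0.0319 by edgeR; up to 0.0964 without 1 library, and -3.41 at 0.167 with SCS drought 3 alone). Its nearest coding gene LOC8078340, of a family of unknown function, fell by 4.42 (SE 1.15, adjusted p = 0.0389 by edgeR).

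Among the other called members that fell, LOC110436313 (chromosome 6) was the most abundant, with 144.0, 144.4 and 264.0 CPM in SCS control and 37.0, 53.7 and 79.7 in SCS drought, a log2 change of -1.70 (SE 0.39, adjusted p = 0.0238 by edgeR). LOC110430729, LOC110436916, LOC110436314, LOC110430304, LOC110431254 and LOC110430396 fell by 1.42 to 2.57. In the same libraries the mesophyll genes summed to 7306 to 27621 CPM, against 39349 to 103064 in SCS control. Their part in the falls was not tested.

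Members that overlap a coding gene on the other strand were described with their partner. Of 17 such members 2 were called in SCS (11.8%, where 9.51% of all tested genes were called). These were LOC110435157 (higher, antisense to MADS27, a transcription factor gene that was not called) and LOC110434029 (lower). For 13 pairs both genes were tested, and 6 had changes of the same sign. In 1 pair both were called. LOC110434029 (chromosome 3, 7072653 to 7077979, plus strand) shares 1759 bases with LOC8061348, named after the rust resistance kinase Lr10 of wheat. The lncRNA gene measured 25.05, 48.2 and 44.4 CPM in SCS control and 6.10, 2.13 and 3.58 in SCS drought, a log2 change of -3.32 (SE 0.58, adjusted p = 0.00912 by edgeR) that held without each library in turn (up to 0.0364) and was -3.45 with SCS drought 3 alone (0.180). The kinase gene went from 19.2 ± 7.73 to 1.40 ± 0.965 CPM, a change of -3.76 (SE 0.80, adjusted p = 0.0187 by edgeR). Since the counting strand is not given, the pair's counts may share reads.

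Other overlapping pairs had unequal changes. LOC110436330, which overlaps LOC8070794 over 2569 bases, had a change of -0.65 (SE 0.34, adjusted p = 0.251 by edgeR) while the coding gene fell by 2.58 (SE 0.51, adjusted p = 0.0142). LOC110437413 had a change of 0.80 (SE 1.01, adjusted p = 0.661) over an omega-3 fatty acid desaturase of the chloroplast (LOC8084033) that fell by 2.36 (SE 0.40, adjusted p = 0.00868). Of 18 divergent pairs with both genes tested, 10 had changes of the same sign, and in none were both called in SCS. In the divergent pair of LOC110430272 and myb-related protein 2 (LOC8077024), 4 bases apart, the changes were 0.92 (SE 0.39, adjusted p = 0.172) and -2.01 (SE 0.52, adjusted p = 0.0371). Within 5000 bases, 78 of 135 pairs changed in the same sign, and in 4 both were called, all with the same sign. Shares for other pairs of neighbouring genes are not given here, so these pair counts do not set the members apart. The nearest coding genes on both sides were called for SCS drought in 52 of 430 cases (12.1%). That share was 12.9% in coding genes with a mean count of 100 or more and 9.51% in all tested genes.

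**Figure D4:**
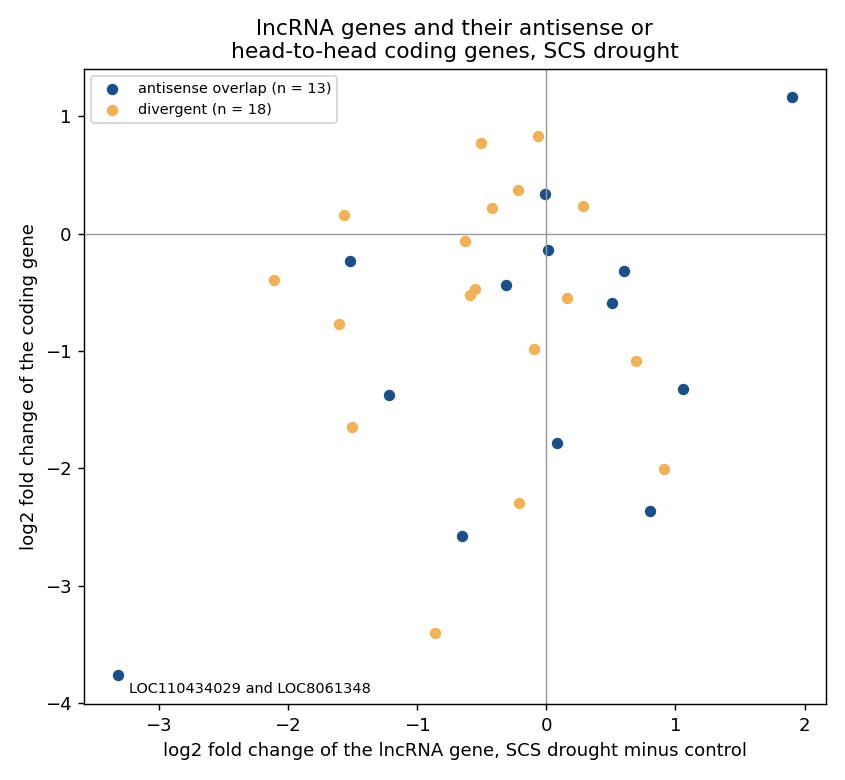
Log2 fold change in SCS drought of lncRNA genes (x) and of the coding gene they overlap on the other strand (13 pairs) or face head to head (18 pairs) (y). The lowest left point is LOC110434029 with LOC8061348, at -3.32 and -3.76.

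In JL none of the 347 members was called between drought and control by edgeR, where 0% of all tested genes were called. At an unadjusted p below 0.05 there were 8 members (2.31%, against 3.71% of all genes), the groups did not overlap in 16 (4.61%, against 5.19%), and the median log2 change was 0.02, against 0.04 in all genes. A change of 2-fold or more in either direction was fitted for 30 members in JL (8.65%, against 18.7% of all genes) and for 100 in SCS (28.8%, against 37.1%). DESeq2 called 5 members in JL, and 0.193% of all genes: LOC110429800, LOC110433887, LOC110430699, LOC110436135 and LOC110435017. In each of them the JL counts lay in 1 drought library. LOC110430699, for example, had 8 counts in JL drought 1 and 0 in the other 5 JL libraries.

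The smallest p in JL belonged to LOC110429842 (chromosome 8, 54921904 to 54926011, minus strand), which had counts in drought libraries of both cultivars and in no control library. It had 0 counts in all 6 control libraries. In JL drought it had 262, 315 and 531 counts, and in SCS drought 909, 2104 and 0. JL drought was at least 374-fold higher than JL control, with the control group's sum set at a floor of 3 counts (303 to 429 without each drought library), and SCS drought at least 1067-fold (479 to 1710). SCS drought 3 alone of the 6 drought libraries was without it. By edgeR the JL change had an unadjusted p of 0.00924 and an adjusted p of 1, and the SCS change an adjusted p of 0.0532.

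The next members by p in JL were LOC110433425, LOC110432228, LOC110434569 and LOC110430109, all at an adjusted p of 1 by edgeR. LOC110433425 (chromosome 3) measured 5.01, 3.17 and 6.54 CPM in JL control and 7.97, 15.1 and 8.35 in JL drought, with no overlap between the groups. LOC110432228 (chromosome 2), which matches a 4-coumarate-CoA ligase-like protein, had 1, 0 and 1 counts in JL control and 2, 251 and 0 in JL drought. Its JL drought value rests on drought 2, and in SCS drought its counts were 303, 695 and 3. LOC110434569 (chromosome 4) had 0, 2 and 0 counts in JL control and 72, 0 and 0 in JL drought, while the 6 SCS libraries held 167 to 447. LOC110430109 measured 18.3, 22.9 and 35.4 CPM in JL control and 9.46, 1.37 and 12.5 in JL drought.

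**Figure D5:**
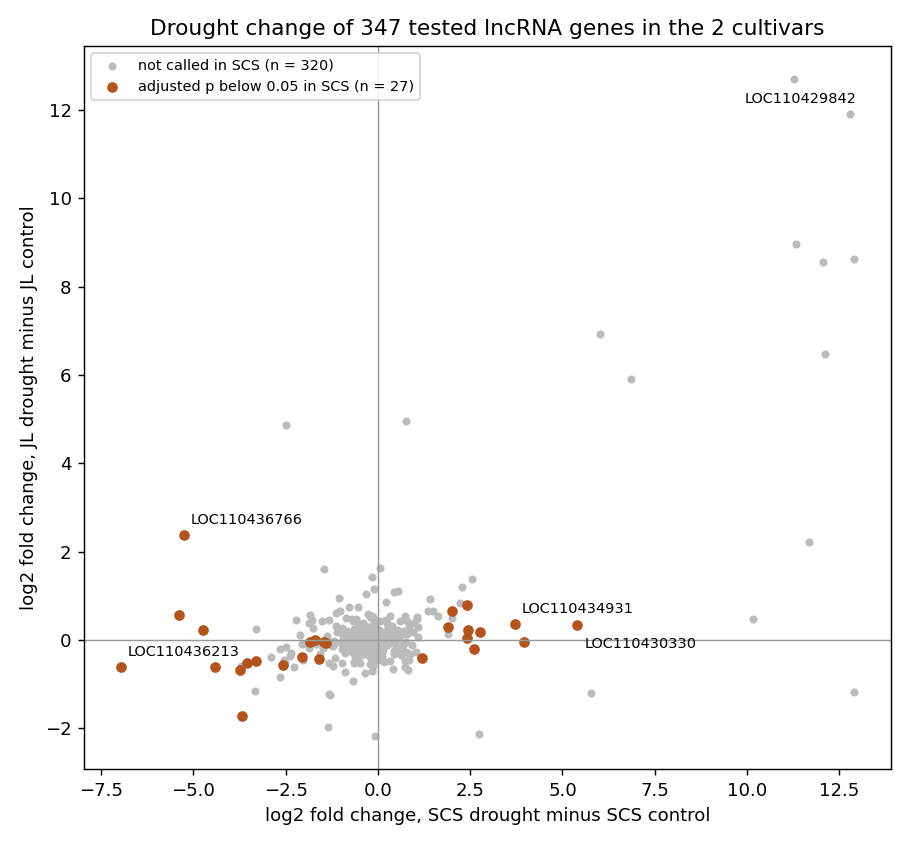
Log2 fold change with drought in SCS (x) and in JL (y) of the 347 tested lncRNA genes; coloured points are the 27 with an adjusted p below 0.05 in SCS. Most coloured points lie within 1 log2 unit of 0 on the JL axis, and the grey points far to the right are genes with few or no counts in SCS control.

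Whether the drought change differed between the cultivars was tested as the JL change minus the SCS change. By edgeR 1 of 347 members was called, where 0.513% of all genes were called and 0.187% with a negative difference, and 44 members had an unadjusted p below 0.05 (12.7%, against 15.4% of all genes). The member was LOC110434931, with a change of 3.71 in SCS and of 0.36 (SE 0.43) in JL. The difference was -3.35 (SE 0.62, adjusted p = 0.0498), and it was past the threshold in 2 of the 12 fits without 1 library, those without SCS drought 3 and without JL drought 2. In the other 10 the adjusted p ran up to 0.143. Without SCS drought 3 the count was 18 members, and without JL drought 2 it was 3. The share of all genes called in these fits is not given here, so the counts do not set the members apart. DESeq2 called 21 members and 6.42% of all genes, among them LOC110430336 and LOC110436213. They also included the split members LOC110430716, LOC110430699 and LOC110429538, with fitted differences of -28.2, 20.8 and -19.8. Sizes like these rest on libraries at 0.

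Between the cultivars in control 1 member was called, where 0.024% of all genes were called and 0.0144% as lower in JL. An unadjusted p below 0.05 was found for 36 members (10.4%, against 14.4%), groups that did not overlap for 77 (22.2%, against 27.6%), and DESeq2 called 12 members and 3.01% of all genes. The member was LOC8055583 (chromosome 2, 56381500 to 56383934, plus strand), with 232, 188 and 294 counts in SCS control, 196, 257 and 203 in SCS drought, 1, 0 and 0 in JL control and 0 in all 3 JL drought libraries. It was present in all 6 SCS libraries, SCS drought 1 and 2 included, and absent or nearly so in all 6 of JL. Its mean count fell under the limit when either SCS group was left out. Its calls between the cultivars are therefore not independent of how the members were chosen. The ratio of SCS to JL was 430 in control (95% counting interval 77.0 to 17022) and at least 138 in drought, and both cover counting error only. The fitted change was -8.43 (SE 0.87, adjusted p = 0.034 by edgeR) in control, lost without each of the 6 libraries in turn (up to 0.269), and -10.52 (SE 1.02, adjusted p = 0.00139 by edgeR) in drought, held without each (up to 0.0085) and with SCS drought 3 alone in its group (0.0466). The size and SE of both fitted changes rest on JL libraries at or near 0. For drought the counts give only the bound of at least 138. The neighbouring coding gene LOC8155712, annotated as the DNA helicase PIF1 and 704 bases away on the other strand, had 10.5 ± 4.51 and 10.4 ± 1.33 CPM in SCS control and drought and 0 counts in JL. Sequence differences between the cultivars at this place were not analysed here. The DESeq2 calls in control include LOC110429538, which had 2 counts in JL control 2 and 0 in the other control libraries.

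In drought 60 members were called between the cultivars (17.3%), 43 higher and 17 lower in JL. Of all genes 18.8% were called, 11.2% higher and 7.55% lower. Of the 17 members lower in JL, 9 fell under the limit on the mean count without SCS drought, the higher group of this comparison. Of the 43 higher in JL, 1 fell under it without JL drought. These calls are not independent of how the members were chosen. The groups did not overlap in 116 members (33.4%, against 32.8% of all genes), 111 had an unadjusted p below 0.05 (32.0%, against 34.1%), and DESeq2 called 88 members and 26.3% of all genes. The median log2 difference was 0.33 in the members and 0.03 in all genes. Under upper-quartile scaling the median of all genes was -0.10, a shift of over 0.1, and 34 members were higher and 21 lower. The share of all genes called is not given for this scaling or for the following fits that left out libraries. These counts do not set the members apart from other genes. Without SCS drought 1 the count was 29 and without JL drought 3 it was 33; with SCS drought 3 alone in its group it was 4, and among the members named for this comparison the call of LOC8055583 alone held, while the others kept their direction at adjusted p of 0.0520 to 0.432 by edgeR. These comparisons share SCS drought with the first one, so their values are given side by side and not as independent evidence.

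Several members higher in JL drought were those at their lowest in SCS drought. The differences were 8.69 (SE 1.26, adjusted p = 0.00232 by edgeR) for LOC110436213, 7.98 (SE 1.3004, 0.00387) for LOC110434426, 4.31 (SE 0.65, 0.00279) for LOC8070379, 4.30 (SE 0.78, 0.00569) for LOC110437411 and 4.27 (SE 0.91, 0.0113) for LOC110433296. Their differences between the cultivars in control, in the same order, were 2.33, 2.02, 1.27, 1.26 and 0.48, and none was called. LOC110434456 (4.56) and LOC8086133 (3.19) were also higher in JL drought. LOC110435713 (chromosome 5) was at 0, 0 and 1.501 CPM in SCS drought and at 14.5, 11.2 and 20.4 in JL drought (4.88, SE 1.296, adjusted p = 0.0269 by edgeR). The calls of LOC110434456, LOC8086133 and LOC110435713 were lost without 1 or more single libraries, at adjusted p up to 0.0649, 0.0836 and 0.0645. Mesophyll genes summed to 157722 to 239784 CPM in JL drought against 7306 to 27621 in SCS drought. Their part in these differences was not tested.

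Members lower in JL drought included LOC110436758 (-3.73), LOC110434931 (-3.55), LOC8061147 (-2.45), LOC110437103 (-2.27) and LOC110430336 (-2.01), which had risen in SCS. Of the members named as lower in JL drought, LOC110436758, LOC8061147, LOC110437103, LOC110430017 and LOC8064203 are members only through SCS drought, and LOC8055583 fell under the limit without either SCS group. LOC110430017 (chromosome 9) was at 11.03, 11.2 and 12.1 CPM in SCS drought and at 3.44, 2.48 and 3.59 in JL drought (-1.85, SE 0.31, adjusted p = 0.00424 by edgeR), with SCS control between them at 4.55 to 6.60. Its 3 SCS drought libraries were nearly equal. LOC8064203 (chromosome 9) was at 28.7, 14.9 and 5.78 CPM in SCS drought and at 3.44, 4.02 and 1.68 in JL drought (-2.43, SE 0.60, adjusted p = 0.0197 by edgeR). The antisense pair of LOC110430502 and LOC8063019, an RPP13-like disease resistance gene (chromosome 1, 4332 bases shared), was higher in JL drought by 1.36 (SE 0.37, adjusted p = 0.029 by edgeR) and 1.56 (adjusted p = 0.0358). Its call and those of LOC8064203, LOC8061147 and LOC110430336 were lost without 1 or more single libraries (up to 0.101, 0.0850, 0.0667 and 0.0883).

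The members with and without a protein match had close shares of calls, a difference that was not tested. Of the 68 with a match, 5 were called in SCS drought (7.35%) and 12 between cultivars in drought (17.6%), against 22 of 279 (7.89%) and 48 of 279 (17.2%) without a match. Split members made up 14 of the 68 (20.6%) and 50 of the 284 without a match (17.6%).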

How the data were processed

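The values tested were whole-number counts per gene as deposited by the authors, not normalised. The authors also deposited FPKM, used for alternative fits as log2(FPKM + 1), and gene lengths. Per the submitters' processing notes the tools included StringTie 1.3.3b, HISAT2 2.0.4 and STAR, whose roles are not stated. Which program counted the reads, on which strand and against which build was not given in the sources used here. Coordinates are those of the deposited table. The members and lists were chosen with earlier results of these data known.

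Genes were kept by filterByExpr (20873 of 33897), scaled by TMM and fitted with edgeR 4.0.16 (quasi-likelihood F test, R 4.3.3), 1 mean per group over 12 libraries, and tables were read with pandas 2.3.3. SE is the size of the log2 change divided by the square root of F. The biological coefficient of variation was 63.3%, which limits the precision. CPM are TMM-scaled, mean ± SD of 3 libraries. Ratios against 1 to 3 counts carry exact 95% binomial intervals. The fit was tested on simulated data. Alternatives were DESeq2 1.42.0, limma 3.58.1 on FPKM, other scalings and filters, a replicate block, the compared libraries alone, members chosen by mean CPM, each library left out and, added after the zeros were seen, SCS drought 1 and 2 left out.

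Named members were the 8 most abundant, per comparison up to 8 called members with the highest and 8 with the lowest change (the 5 of smallest p where none was called), antisense pairs called together, up to 8 members with a protein match (the rule asked for a known product, and all products read uncharacterized) and those next to the limit. The split members and the neighbours were named after their values were seen. Counts in overlapping or near-identical genes are uncertain. Promoter and transcript sequences were not analysed here.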

Additional observations from a re-analysis of the deposited data

Results flagged for a closer look

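LOC110434931 was the member whose drought change differed between the cultivars by a test of the difference itself: the JL change minus the SCS change was -3.35 on the log2 scale (SE 0.62, adjusted p = 0.0498 by edgeR), with all 3 SCS drought libraries above all 9 others. The call was lost in 10 of 12 fits that left out 1 library.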

How the results depend on the processing

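Leaving out 1 library in turn gave 6 to 57 called members for SCS drought (fewest without SCS control 3, most without SCS drought 3), 0 to 0 for JL drought, 0 to 18 for the interaction, 0 to 0 between cultivars in control and 29 to 66 in drought. DESeq2 called 62, 5, 21 and 12 members in the first 4 of these comparisons and 88 in the last. The unfiltered counts gave 0 members for the interaction, and limma on FPKM gave 4. The compared libraries alone gave 4 members between cultivars in control and 18 in drought, and members chosen by mean CPM gave 0 in control. SCS drought 3 alone in its group gave 0 for SCS drought, 0 for the interaction and 4 between cultivars in drought. Replicates of different groups share only a number: the correlations of same-numbered libraries' deviations ran from -0.49 to 0.38 over the 4 pairs of groups, and with the number as a replicate block 18, 0, 0, 0 and 37 members were called in the 5 comparisons. RLE and upper-quartile scaling and the stricter filter kept each of these counts within 1.5 times. Shares of all genes are not given for most of these settings, so the counts do not set the members apart from other genes. Of the values of single named members under alternatives that left out 1 library, 181 kept direction and side of the threshold, 76 fell short of the threshold and 1 reversed: the JL change of LOC110434569, 4.97 in all, was -3.04 without JL drought 1, which holds its 72 counts, and ran up to 8.02 without JL control 2. Under the other alternatives 239 kept both and 49 fell short. Both tallies include the named JL drought results, which were not called in the main fit and so had no call to lose. This raises the numbers that kept their side. The cause of these differences was not tested. Intervals and floors cover counting error only, and with 3 libraries a group and zeros in single libraries, changes of split members were mostly not detectable.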
